A study of Mus musculus with 6 samples.

Results

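miR-137 is a brain-enriched microRNA (miRNA), a short RNA that guides the repression of messenger RNAs through its seed, the bases near its 5′ end. The rows named for it in the deposited table were taken, and both arms of its hairpin, mmu-miR-137-3p and mmu-miR-137-5p, were listed, so that 2 of the 756 mature miRNAs are described here. The libraries were of small RNA, and their source was dorsal striatum, dissected on the cryostat, of 7-week-old C57BL/6N mice. In the nicotine withdrawal group (n = 3 libraries) the mice had nicotine at 0.5 mg/kg once a day for 3 days and, 24 hours after the final dose, mecamylamine at 3.0 mg/kg, an antagonist of nicotinic acetylcholine receptors that precipitates withdrawal. The saline group (n = 3 libraries) was given saline instead of either drug, so nicotine and mecamylamine cannot be told apart. The mice were killed 1 week after their last injection. Each library was read as 1 mouse. If some shared a mouse or pooled several, the p-values would not measure the spread between single mice.

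In neurons, miR-137 is known to act on dendrite growth and on the release of synaptic vesicles, where complexin 1, N-ethylmaleimide-sensitive factor and synaptotagmin 1 are among its reported targets. In neural progenitors it is known for repressing the chromatin enzymes Ezh2 and Lsd1 (Kdm1a). The ubiquitin ligase Mib1 is another of its reported targets. In humans, common variation at its gene is associated with schizophrenia, which is why it is called a psychiatric risk miRNA. The labels state no aim for it, and the question here is whether its level in dorsal striatum differed after withdrawal.

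The sequences are shown because they separate the abundant arm from the rare one and set the seed used to look for relatives. They are RefSeq entries on GRCm38.p6, in which Mir137 lies on the plus strand at chr3:118433857-118433929. The submitters' processing notes name mm9, and the table carries no coordinates. In GENCODE M21, on the same assembly, that interval falls within exons of the noncoding gene Gm26871, and the nearest protein-coding gene, Dpyd, starts 128200 bases downstream. Both mature arms are 23 bases long, written with seed bases 2 to 8 in capitals. The hairpin of 73 bases has both mature arms in capitals, the 5p arm first.
miR-137-3p: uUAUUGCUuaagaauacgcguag
miR-137-5p: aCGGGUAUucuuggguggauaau
mir-137 hairpin: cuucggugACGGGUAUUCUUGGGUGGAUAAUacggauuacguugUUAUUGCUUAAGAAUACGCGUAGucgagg
The predicted fold of the hairpin has a free energy of -31.2 kcal/mol and 20 base pairs between the arms. In the sequence, 13 bases lie between the end of the 5p arm and the start of the 3p arm. The first 6 bases of the 3p arm hold 5 A or U and those of the 5p arm hold 2.

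miR-137-3p was a moderately abundant miRNA of the dorsal striatum, and its level was nearly the same in both groups. Values are normalized reads, that is, read counts divided by the authors' size factor for each library. It stood at 17079, 17291 and 16228 normalized reads in withdrawal libraries 1, 2 and 3, against 17064, 16993 and 16315 in saline libraries 1, 2 and 3. The ranges overlap almost completely, and library 3 is the lowest in each group. The means were 16866 ± 563 in withdrawal and 16790 ± 413 in saline (SD, n = 3 each). As a share of all normalized reads of a library this was 0.0381 ± 0.0014% in withdrawal and 0.0371 ± 0.0011% in saline. By mean level over the 6 libraries miR-137-3p ranked 131 of 756, above 82.7% of the listed miRNAs, and its rank within single libraries ran between 129 and 134.

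The log2 fold change of miR-137-3p, withdrawal over saline, was 0.0063 ± 0.033 (SE), with a 95% interval from -0.065 to 0.078 (limma on log2(value + 1), Benjamini-Hochberg adjusted p = 0.947 over 699 miRNAs tested). On the linear scale that interval runs from a change of -4.43% to one of 5.55%. An exact two-sided permutation test over the 6 libraries gave p = 0.8, where the smallest p that 3 against 3 allows is 0.1. Over all miRNAs 46 of 699, or 6.58%, passed the adjusted threshold of 0.05 (3.00% higher and 3.58% lower in withdrawal), and neither arm of miR-137 was among them. The groups did not overlap in 27.6% of tested miRNAs, and they did overlap for both arms of miR-137. The smallest change among those 46 was 0.095 on the log2 scale, or 1.07-fold, which lies outside the interval of miR-137-3p. That does not hold in every setting: the interval reached 0.11 with equal library totals, with quantile normalization and when the fit had no variance trend. The 0.095 stays that of the fit as reported. Other settings have calls of their own, and the fit with no variance trend has none. It also reached past 0.095 in size without withdrawal 2 (-0.097), withdrawal 3 (0.10), saline 1 (0.099) or saline 2 (0.10). The sign of so small a value carries no information, since it turned negative without withdrawal 1, withdrawal 2 or saline 3.

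The precision behind this is that of an ordinary miRNA of its level. The residual SD of miR-137-3p was 0.043 on the log2 scale, against a median of 0.041 for the 40 tested miRNAs nearest to it in level. Its absolute log2 fold change was larger than that of only 29 of the 699 tested miRNAs, or 4.15%, and the median over all of them was 0.082. The lower values of a library are whole multiples of 1 smallest unit, and on the assumption that this unit is a single read, miR-137-3p rested on 17158 to 19451 reads in withdrawal libraries and 15067 to 19117 in saline libraries. Counting error alone would then be 0.717% to 0.815%, below the coefficient of variation of 3.34% in withdrawal and 2.46% in saline.

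**Figure D1:**
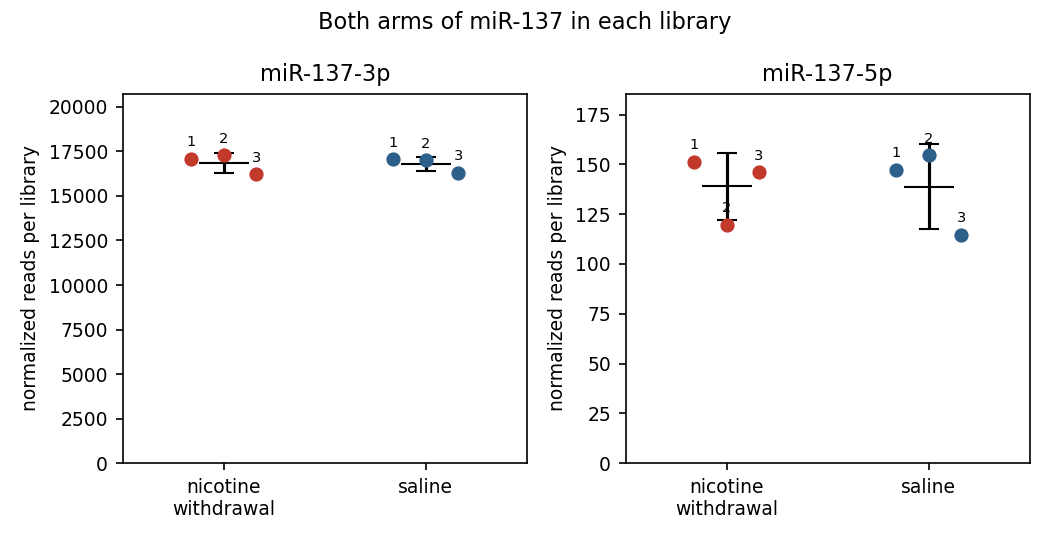
Normalized reads (y axes, from 0) of miR-137-3p (left) and miR-137-5p (right) in each library of the nicotine withdrawal and saline groups; numbers are replicate numbers, and bars give the mean ± SD (n = 3). The 3p arm sits between 16228 and 17291 in all 6 libraries. The 5p arm spreads from 115 to 155 in saline, and the withdrawal values, from 119.7 to 151, lie inside that range.

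miR-137-5p, the other strand of the hairpin, was scarce and likewise did not differ between groups beyond its spread. It stood at 151, 119.7 and 146 normalized reads in withdrawal libraries 1, 2 and 3, against 147, 155 and 115 in saline libraries 1, 2 and 3. Each group had a pair of libraries near the top of the range and 1 low library, withdrawal 2 and saline 3. The means were 139 ± 16.9 in withdrawal and 139 ± 21.2 in saline (SD, n = 3 each), and the arm ranked 477 of 756 by mean level. Its log2 fold change was 0.0055 ± 0.14 with a 95% interval from -0.29 to 0.30 (limma, adjusted p = 0.982; exact two-sided permutation p = 1.0). In percent the interval runs from -18.3% to 23.3%, so changes of the smaller sizes called elsewhere, such as 1.07-fold, lie inside it. On the same assumption it rested on 134 to 175 reads in withdrawal libraries and 115 to 174 in saline libraries, and counting error alone would be 7.56% to 9.33%.

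The balance of the arms was strongly toward the 3p strand in each of the 6 libraries. The 3p arm exceeded the 5p arm 113-fold, 144-fold and 111-fold in withdrawal libraries 1, 2 and 3, and 116-fold, 109.9-fold and 142-fold in saline libraries 1, 2 and 3. The high ratios belong to the libraries with few 5p reads, withdrawal 2 and saline 3, and the groups overlap. The means were 123 ± 18.7 in withdrawal and 123 ± 17.2 in saline (SD, n = 3 each). The log2 ratio of 5p to 3p changed by -0.00071 ± 0.15 (95% interval -0.37 to 0.37; limma, adjusted p = 0.9996 over 203 precursors with both arms tested; exact two-sided permutation p = 1.0). None of the 203 precursors, 0.00%, passed in limma, where 33 had an unadjusted p under 0.05, nor in limma with a trend of variance on level. Without withdrawal 3, 1 other precursor passed.

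Set against the other precursors, the arm bias of miR-137 was above the middle of the range. Its mean log2 ratio of 3p to 5p was 6.92, the rank 25 of 203 toward the 3p arm and 45 of 203 by absolute bias, where the median absolute log2 ratio was 3.79. Among neuron-enriched precursors it lay next to miR-124, also dominated by its 3p arm with a log2 ratio of 6.84. miR-9 was biased the other way, at -5.97, and miR-384 used its arms almost equally, at 0.24. Adapter ligation favours some ends over others, so a ratio of arms from sequencing is not a ratio of molecules.

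**Figure D2:**
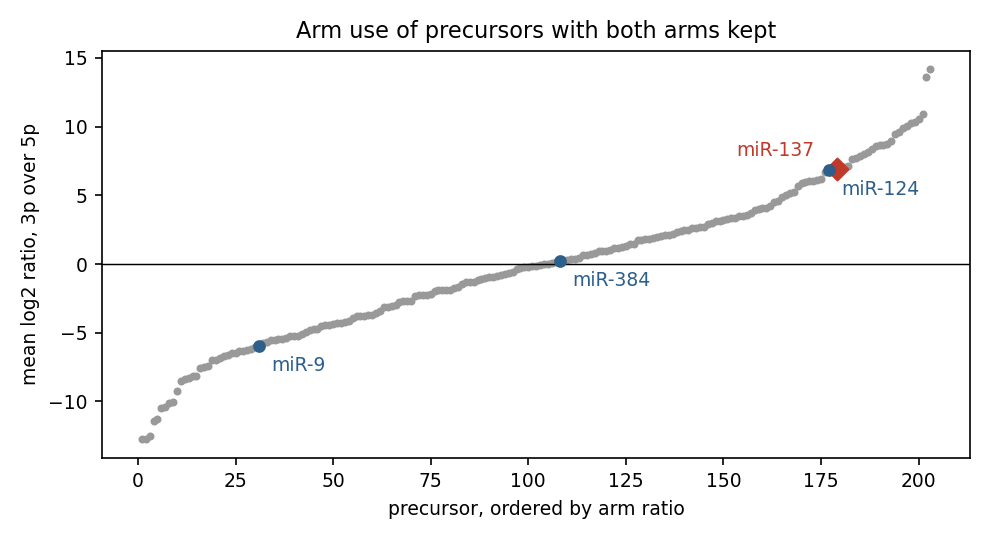
Mean log2 ratio of the 3p to the 5p arm over 6 libraries (y axis) for the 203 precursors with both arms tested, ordered by that ratio (x axis); the diamond is miR-137 and blue points are neuron-enriched precursors named in the text. miR-137, at 6.92, lies next to miR-124, at 6.84, on the 3p side.

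Among neuronal miRNAs, miR-137-3p was one of the less abundant. A list of 16 neuron-enriched miRNAs, all tested, served as its setting, and with both miR-137 arms added the 3p arm was number 13 of 18 by level and the 5p arm number 18. miR-9-5p, which acts in neural progenitors and neurons, was the most abundant and stood 79.3-fold above miR-137-3p in normalized reads. miR-128-3p, a regulator of neuronal excitability, stood 42.3-fold above it. miR-137-3p averaged 16828 normalized reads over the 6 libraries, against 352683 for miR-124-3p, the classic neuronal miRNA that represses non-neuronal transcripts. Its neighbours in this order were miR-9-3p above, between 20067 and 22213 normalized reads over the 6 libraries, and miR-873a-5p below, between 14081 and 15086. Neither range overlaps that of miR-137-3p, 16228 to 17291, so its place in this order was the same in each library. Such levels carry the ligation bias of each sequence and order reads, not molecules.

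**Figure D3:**
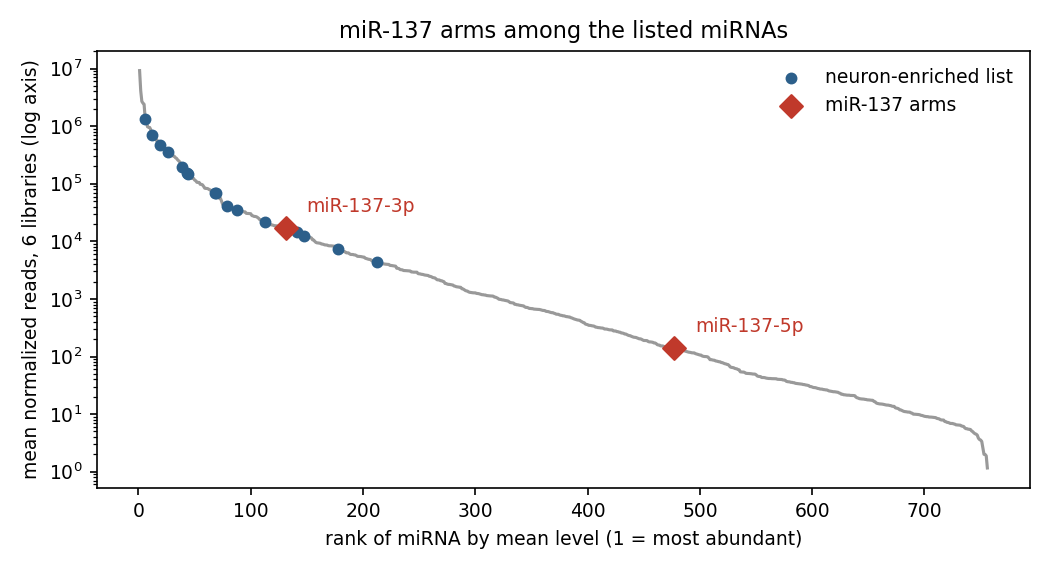
Mean normalized reads over 6 libraries (y axis, log scale) of all 756 listed miRNAs by rank (x axis); diamonds are the miR-137 arms and circles the 16 neuron-enriched miRNAs. miR-137-3p, at rank 131, lies in the lower part of the neuron-enriched range, and miR-137-5p, at rank 477, lies below all of it.

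The neuron-enriched list did not move as one in withdrawal, with members on both sides of miR-137-3p. Of the 16 members, 2 rose, 1 fell and 13 did not pass, so that 18.8% were called against 6.58% over all tested miRNAs. Their median log2 fold change was 0.051, against 0.0026 over all tested miRNAs. The members lie between ranks 6 and 212 of 756 by level, and the 6.58% includes rarer miRNAs with wider intervals. miR-7a-5p, known in endocrine cells and neurons, rose by 0.21 ± 0.05 (limma, adjusted p = 0.0357), to 7853 ± 692 normalized reads in withdrawal, against 6776 ± 285 in saline. miR-384-5p, known from synaptic potentiation, rose by 0.14 ± 0.04 (limma, adjusted p = 0.0440). miR-138-5p, a regulator of dendritic spine size, was lower at -0.25 ± 0.05 (limma, adjusted p = 0.00934), a call that ended without saline 2. The rise of miR-7a-5p did not pass without withdrawal 2 or any 1 of the saline libraries, nor that of miR-384-5p without any 1 library other than saline 1. Without saline 2, or without a variance trend, none of the 16 passed. With libraries scaled to equal totals 5 rose and 1 fell, and with quantile normalization none rose and 1 fell.

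Whether miR-137-3p departed from these miRNAs was asked within each library, where the scaling cancels. Its log2 level minus the mean log2 level of the 16 was -2.09, -2.08 and -2.17 in withdrawal libraries 1, 2 and 3, against -2.09, -2.08 and -2.14 in saline libraries 1, 2 and 3. Library 3 is again the lowest in both groups, and the ranges overlap. The means were -2.12 ± 0.051 in withdrawal and -2.10 ± 0.032 in saline (SD, n = 3 each), a difference of -0.016 (exact two-sided permutation p = 0.6, smallest possible 0.1). Against the median of the list the difference was 0.023, of the opposite sign and with the same p from the exact permutation test.

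**Figure D4:**
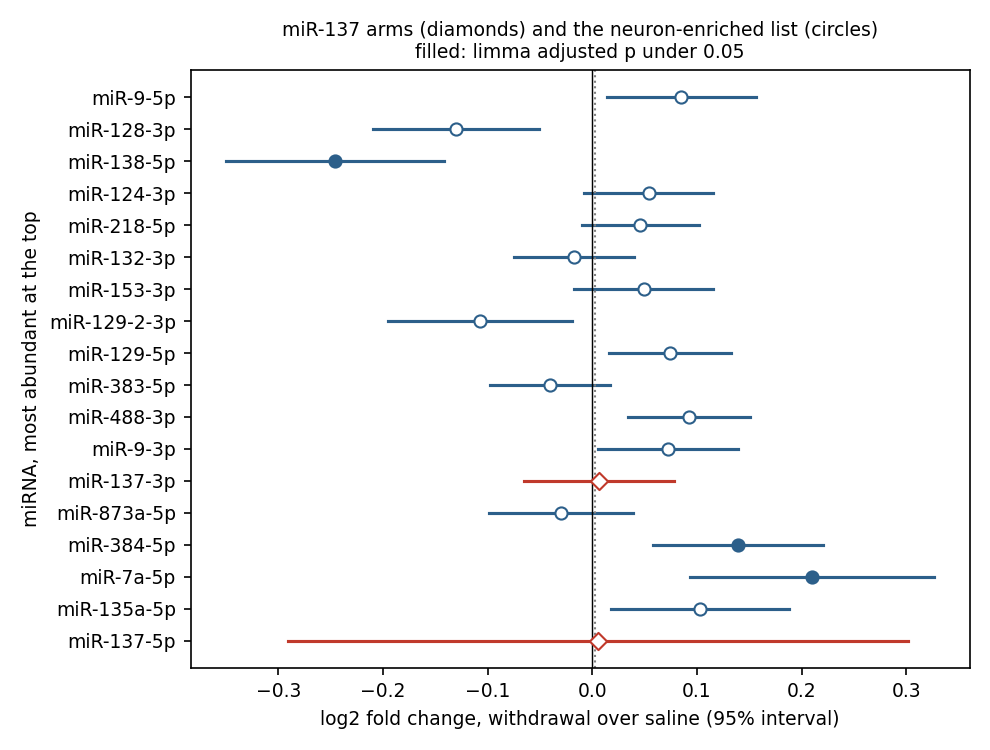
Log2 fold change, withdrawal over saline, with 95% interval from limma (x axis) for the miR-137 arms (diamonds) and 16 neuron-enriched miRNAs (circles), most abundant at the top (y axis); filled symbols passed at adjusted p under 0.05 and the dotted line is the median of all tested miRNAs. miR-137-3p lies at 0.0063 with a narrow interval and miR-137-5p at 0.0055 with a wide one, and the 3 filled circles are miR-138-5p, miR-384-5p and miR-7a-5p.

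Lists of miRNAs that share a field of study with miR-137 were read against the 6.58% called over all tested miRNAs, and they share members with each other. Of 18 miRNAs of synaptic plasticity, none rose, 3 fell (16.7% called) and 15 did not pass, with a median log2 fold change of -0.027. Those that fell were miR-138-5p, miR-485-5p, another synaptic miRNA, at -0.19 ± 0.03, and miR-92a-3p. The most abundant member, miR-181a-5p, stood at -0.032 ± 0.05. Of 14 miRNAs studied in schizophrenia, miR-15a-5p fell (-0.14 ± 0.03; 7.14% called) and 13 did not pass, with a median of -0.0064, and miR-132-3p, induced by neuronal activity, stood at -0.017 ± 0.03. Of 12 miRNAs of adult neurogenesis, miR-106b-5p rose (0.14 ± 0.03; 8.33% called) and 11 did not pass, with a median of 0.0010. In the last list miR-9-5p stood at 0.085 ± 0.03 (limma, adjusted p = 0.156). The call for miR-15a-5p ended without withdrawal 2 or saline 2, and that for miR-106b-5p without withdrawal 2 or any 1 of the saline libraries. Both also ended with quantile normalization, and the call for miR-92a-3p ended with equal library totals.

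The abundant neuronal miRNAs show brain tissue, but none of those listed marks the dorsal striatum alone. miRNAs of other cell types were also present, and some differed between groups while miR-137 did not. Calls in the lists of these cell types stand beside the 6.58% called over all tested miRNAs. In a list of 4 or 5 members 1 call already exceeds that share, so such a call does not describe the list as a whole. Each called member named here had the smallest p of its list. The choroid plexus and epithelium list, with 3 of 12 members higher (among them miR-183-5p, 0.46 ± 0.07) and 9 not passing, summed to between 107237 and 108573 normalized reads in withdrawal and between 100237 and 104105 in saline. Most of that sum is miR-204-5p, at 92113 ± 1318 in withdrawal and 87931 ± 1967 in saline (SD, n = 3 each). By contrast, miR-183-5p stood at 493 ± 13.9 in withdrawal and 358 ± 23.4 in saline. All 12 members had positive values, with a median of 0.18. The oligodendrocyte list, with 1 of 4 lower (miR-338-3p, -0.16 ± 0.03), summed to between 107207 and 110571 in withdrawal and between 113199 and 119834 in saline. miR-338-3p, at 78261 ± 1419 in withdrawal and 87651 ± 3007 in saline (SD, n = 3 each), makes up most of that sum, while miR-338-5p stood at 0.11 ± 0.05 and miR-219a-5p at 0.079 ± 0.05 without passing, and the list median was 0.026. The leading epithelial miRNA by level, the choroid plexus marker miR-204-5p, had a value of 0.067 ± 0.03, and the most abundant vascular one, miR-143-3p of smooth muscle, at 0.076 ± 0.03, and neither passed. No member of the choroid plexus and epithelium or oligodendrocyte lists was at 0 in any library. In bulk tissue fewer cells of a type and less RNA per cell cannot be told apart, and the part of cell composition in the miR-137 values was not tested. In the remaining lists, miR-150-5p of lymphocytes (1 of 5 in the microglia and leukocyte list) and miR-126a-3p of endothelium (1 of 4) fell, miR-486a-5p of erythrocytes (1 of 4) rose, and the other members did not pass. Of the 5 microglial and leukocyte miRNAs, 3 had positive values, with a median of 0.014. All 4 erythrocyte miRNAs had positive values, with a median of 0.11. Only 1 of the 4 endothelial and vascular smooth muscle miRNAs did, with a median of -0.063. The calls for miR-150-5p and miR-126a-3p ended without either withdrawal 1, withdrawal 2, saline 2 or saline 3. Both also ended with equal library totals. With quantile normalization the calls for miR-150-5p and miR-486a-5p ended, and without a variance trend no miRNA passed.

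The miRNAs nearest to miR-137-3p in level were set beside it. The 3 next above it were miR-219a-2-3p, miR-1249-3p and miR-344d-3p, with log2 fold changes of -0.027 ± 0.03, -0.045 ± 0.09 and 0.054 ± 0.04. The 3 next below were miR-335-3p at -0.042 ± 0.04, miR-431-5p at -0.15 ± 0.03 and miR-411-3p at 0.0045 ± 0.03. Only miR-431-5p, from the imprinted Dlk1-Dio3 cluster, passed (limma, adjusted p = 0.0156), where 6.58% passed over all tested miRNAs. It stood at 15105 ± 194 normalized reads in withdrawal and 16761 ± 630 in saline. Its call ended without withdrawal 2 or saline 3, and also with quantile normalization.

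Likeness of profile was measured as the root mean square difference between log2 values over the 6 libraries, each miRNA centred on its own mean. For miR-137-3p the centred values were 0.022, 0.040 and -0.052 in withdrawal libraries 1, 2 and 3, against 0.020, 0.014 and -0.044 in saline libraries 1, 2 and 3. The most alike were miR-27a-3p, at a root mean square difference of 0.019, miR-221-5p at 0.020, miR-148b-3p at 0.023, miR-139-5p at 0.024 and miR-770-5p at 0.025. The median over all tested miRNAs was 0.093. All 5 were lower than their own mean in library 3 of both groups, as miR-137-3p was, and none passed the group test. Both traits follow from choosing the 5 on these same values, so they are no separate finding. The 5p arm of the same hairpin was not among the alike, with a difference of 0.17 and position 489 in that order. This measure favours miRNAs whose values vary little, and abundant ones have less counting error.

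No other listed miRNA with a RefSeq sequence shared the seed of miR-137-3p. Sequences were found for 654 of the 756 names, and 0 of them had the same bases 2 to 8 or shared a run of 6 of those bases. The search was then widened to a run of 5, after the values had been seen, and found 7 miRNAs. They include members of the miR-25/92 family, shown here because their seeds hold the run AUUGC of the miR-137-3p seed, 1 base further toward the 5′ end. Bases 2 to 8 are in capitals.
miR-137-3p: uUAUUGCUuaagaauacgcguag
miR-92a-3p: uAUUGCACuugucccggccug
miR-25-3p: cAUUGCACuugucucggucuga
miR-92a-3p fell, with a log2 fold change of -0.12 ± 0.03 (limma, adjusted p = 0.0156), to 69293 ± 824 normalized reads in withdrawal, against 75088 ± 645 in saline. This call ended without either withdrawal 1, withdrawal 2, saline 2 or saline 3, and also with equal library totals. miR-92b-3p stood at -0.087 ± 0.04, miR-25-3p at 0.019 ± 0.03, miR-32-5p at 0.036 ± 0.06 and miR-363-3p at -0.33 ± 0.18, and none of these passed. The other two, miR-325-3p and miR-503-3p, hold the run UAUUG and stood at 0.13 ± 0.05 and -0.14 ± 0.32 without passing. The 1 call among these 7 stands beside 6.58% called over all tested miRNAs. A shared run of letters is a description and says nothing of shared targets.

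**Figure D5:**
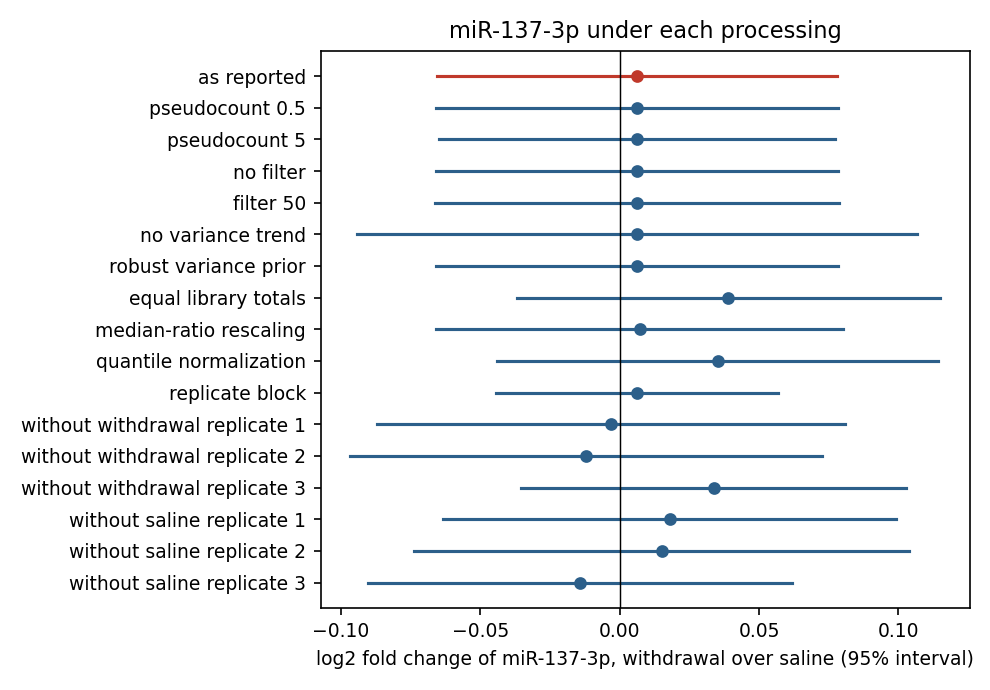
Log2 fold change of miR-137-3p, withdrawal over saline, with 95% interval from limma (x axis) under each way of processing the values (y axis). All 17 intervals include 0, and the point estimates lie between -0.014 and 0.039.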

How the data were processed

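The miR-137 members and the lists were chosen with earlier results of these data known. The authors deposited 1 table of normalized signal, read counts scaled by 1 size factor per library. DESeq2 and mm9 are named in the submitters' processing notes. The aligner, the miRNA annotation, the filters and the handling of reads shared by several miRNAs are not given in those sources. Library preparation was with a TruSeq small RNA kit from Trizol extracts, per the labels' protocols.

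Tests covered the 699 of 756 miRNAs that reached a value of 10 in 3 or more libraries. limma 3.58.1 (R 4.3.3) was run on log2(value + 1), two-sided, its variance prior following the level of a miRNA, and p-values were adjusted by Benjamini-Hochberg with a threshold of 0.05. The added 1 makes the fold changes of low miRNAs smaller than they are. Arm ratios were fitted without that trend. Other pseudocounts, filters, scalings, variance models, a replicate block and leaving out each library were alternatives.

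If a step of the values is 1 read, libraries held 44529730 to 53262896 reads in withdrawal and 40111870 to 50480767 in saline. Every value under 5000 steps checked was a whole multiple of the step within 0.01 of a step. The values of miR-137-3p lie above 5000 steps and were not part of that check. The smallest positive value was 5 steps in each library but saline 2, where it was 4. Reads carry no molecular identifiers, so counting error is a lower limit. No library copied another of its group: chi-square divided by its degrees of freedom ran from 22.9 to 169.7 on those reads.

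Named miRNAs were the arms of miR-137, the 3 tested miRNAs next above and next below miR-137-3p in mean level, the 5 most alike in profile, those sharing at least 6 seed bases (none), and the most abundant and the smallest-p member of each of 9 lists. Other names were chosen after their values were seen. Folding used RNAfold 2.7.2, and tables and plots Python 3.11.15, numpy 2.4.6, pandas 2.3.3, scipy 1.17.1 and matplotlib 3.10.9. The code was tested on simulated data.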

Additional observations from a re-analysis of the deposited data

How the results depend on the processing

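Neither arm of miR-137 passed the threshold in any of 16 alternatives, nor did its arm ratio in 13, one of which, a variance trend, was chosen after seeing the data. The log2 fold change of miR-137-3p lay between -0.014 and 0.039 over these alternatives (limma, adjusted p from 0.547 to 0.964), and between -0.014 and 0.034 with 1 library left out. With 1 library left out miR-137-5p lay between -0.13 and 0.11, the 5p to 3p ratio between -0.11 and 0.12, and miR-137-3p over the neuron-enriched list between -0.034 and 0.013. Each of these ranges spans 0, so no sign is settled. The last value was -0.016 as reported, 0.023 against the list's median and -0.079 against its most abundant member (exact permutation p = 0.2). That member, miR-9-5p, had a log2 fold change of 0.085 against 0.0063 for miR-137-3p, and the cause of this difference was not tested.

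The count of 46 miRNAs past the threshold was 0 in limma without the variance trend (112 at an unadjusted p under 0.05), 22 with quantile normalization and from 13 (without saline 2) to 58 with 1 library left out; it was 21 without withdrawal 2 and 22 without saline 3. With equal library totals it was 61, 46 higher and 15 lower, against 21 higher and 25 lower. A replicate block by number gave 106. Across miRNAs, deviations from the group mean correlated between same-numbered libraries at -0.073, 0.093 and 0.043, and 3 of 6 libraries correlated best with their own number, so the numbers were not taken as pairs. The block left miR-137-3p at 0.0063 (limma, adjusted p = 0.913) with a 95% interval from -0.044 to 0.057. For the 13 other named miRNAs tracked through the alternatives that passed, 154 values stayed past the threshold and 54 kept their direction below it. For those that did not pass, 305 kept their sign below it, 23 changed sign below it and 7 passed. Count tests planned on reads recovered from the values were not run. If a step is 1 read, the counting error of miR-137-5p, 7.56% to 9.33%, lies below its coefficient of variation of 12.2% in withdrawal and 15.3% in saline.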
